A study of Homo sapiens with 11 samples.

Results

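CCL20, CCL22, CXCL1, CXCL2, CXCL3, CXCL8, CXCL10, CXCL11, CXCL16 and IL1B are 9 chemokine genes and the gene of interleukin-1 beta. They were taken by name as a set of secreted inflammatory signals, with earlier results of these data known. These 10 genes were followed among the 28252 genes measured by RNA-Seq in RT4 cells and among the 26237 promoters measured by H3K4me3 ChIP-Seq in BEAS-2B cells. All 10 were listed in both data sets.

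RT4 is a line of human bladder cancer cells, and BEAS-2B is an immortalized line of human bronchial epithelial cells. The study asked which changes in expression and chromatin appear during exposure to nickel and which are present after nickel is removed. Untreated cells (UT) were compared with nickel-exposed cells (Ni-E), which were cultured for 6 weeks with 100 μM NiCl2, and with nickel-washed-out cells (Ni-W), which had the same exposure and were then kept without nickel. RT4 Ni-W cells had 2 weeks in nickel-free medium and were not cloned, whereas BEAS-2B Ni-W cells were a population grown from a single colony and kept for more than 6 months, so that the time without nickel and the selection of 1 colony cannot be told apart in that line. RNA-Seq had 2 libraries for each condition, with 17075833 to 27736454 estimated counts per library, and ChIP-Seq had 1 library for each condition. The methods name biological replicates for the RNA but not how they were kept apart, so the p-values below measure only the spread between these libraries.

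Chemokines are small secreted proteins that bind G protein-coupled receptors on leukocytes and direct their migration. CXCL1, CXCL2, CXCL3 and CXCL8 attract neutrophils through CXCR2, and CXCL8 also binds CXCR1. CXCL10 and CXCL11 are interferon-inducible ligands of CXCR3 on activated T cells, CCL20 binds CCR6, CCL22 binds CCR4, and CXCL16 is made as a membrane-bound protein that is shed by metalloproteinases and binds CXCR6. IL1B is made as an inactive precursor that caspase-1 cleaves, and IL-1 signalling through NF-kappaB is a classical inducer of several of these chemokines in epithelial cells. H3K4me3 is a histone mark found at the promoters of active and poised genes.

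The promoters are shown first because H3K4me3 was measured across them. A RefSeq promoter sequence (GRCh38.p14) was found for 9 of the 10 genes, and CXCL16 was not matched. Within 250 bases before to 50 bases after the start, the NF-kappaB motif GGNNTTTCC was present on either strand in 7 of the 9, compared with 6.26% of 35116 promoters of the same length. The lines below give the 130 bases before the start of each of the 7 (250 bases for CXCL10), 5′ to 3′ on the strand of the gene, with matches to the NF-kappaB motif in capitals and, in CXCL10, also the match to the interferon-stimulated response element (ISRE), searched as the word GAAA at both ends of any 2 bases on either strand.
CXCL1: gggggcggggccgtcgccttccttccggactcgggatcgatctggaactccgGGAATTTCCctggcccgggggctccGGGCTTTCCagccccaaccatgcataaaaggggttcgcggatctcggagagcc
CXCL2: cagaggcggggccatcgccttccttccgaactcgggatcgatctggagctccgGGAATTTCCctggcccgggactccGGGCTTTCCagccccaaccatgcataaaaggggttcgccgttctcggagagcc
CXCL3: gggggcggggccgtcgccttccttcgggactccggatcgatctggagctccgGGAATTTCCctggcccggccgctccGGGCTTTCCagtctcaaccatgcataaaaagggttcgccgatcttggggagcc
CXCL8: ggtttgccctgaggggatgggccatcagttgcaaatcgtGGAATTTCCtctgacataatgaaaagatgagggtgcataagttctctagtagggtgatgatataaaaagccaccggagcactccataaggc
CXCL10: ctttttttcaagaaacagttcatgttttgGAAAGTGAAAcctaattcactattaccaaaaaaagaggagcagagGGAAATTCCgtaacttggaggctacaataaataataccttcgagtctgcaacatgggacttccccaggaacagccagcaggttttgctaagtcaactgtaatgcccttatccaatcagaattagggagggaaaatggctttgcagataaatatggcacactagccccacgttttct
CXCL11: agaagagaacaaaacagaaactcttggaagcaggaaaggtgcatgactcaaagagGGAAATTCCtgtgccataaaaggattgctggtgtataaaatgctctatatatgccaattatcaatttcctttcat
CCL20: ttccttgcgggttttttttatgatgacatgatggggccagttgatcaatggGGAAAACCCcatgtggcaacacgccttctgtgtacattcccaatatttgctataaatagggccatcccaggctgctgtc
The windows lie at chr4:73869263-73869392 (plus strand) for CXCL1, chr4:74099196-74099325 (minus) for CXCL2, chr4:74038690-74038819 (minus) for CXCL3, chr4:73740439-73740568 (plus) for CXCL8, chr4:76023498-76023747 (minus) for CXCL10, chr4:76036071-76036200 (minus) for CXCL11 and chr2:227813712-227813841 (plus) for CCL20. These starts are those of RefSeq. The gene positions given below are those of GENCODE, whose outermost starts differ most for CCL20 and CXCL11, so that their windows lie inside the gene.

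CXCL1, CXCL2 and CXCL3 each held 2 matches to the NF-kappaB motif, and the same pair of words, GGAATTTCC and GGGCTTTCC, appeared in all of them. These promoters are copies of one another in large part. Over the 250 bases before the start, CXCL1 shared 81.4% of its bases with CXCL3 and 70.4% with CXCL2, so they are not independent instances of the motif. CXCL8 carried the word GGAATTTCC at position -91 from the start, although its promoter shared only 35.3% to 41.5% of bases with the other 3. CXCL10 and CXCL11, which are neighbours on chromosome 4, carried GGAAATTCC on the strand of the gene, and CCL20 carried GGAAAACCC, both of which are matches on the opposite strand. The ISRE was found in CXCL10 alone among the 9 (3.57% of all promoters). The TATA word TATAAA was found in CCL20, CXCL8 and CXCL11 (11.5% of all promoters), the AP-1 motif TGANTCA in CXCL8 and CXCL11 (7.71%), and the hypoxia-response core ACGTG in CXCL10 (21.4%). The promoters of CCL22 and IL1B matched none of these motifs. A match is a description of the letters and not evidence of binding.

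In RT4 cells, CXCL10, CXCL8 and IL1B rose during nickel exposure. CXCL10 rose 14.7-fold, CXCL8 rose 5.88-fold and IL1B rose 2.95-fold in Ni-E compared to UT cells. At 2 weeks after the removal of nickel, CXCL10 was still 14.2-fold and CXCL8 3.26-fold above UT, and CCL22 had risen 3.54-fold. A gene was called where it changed at least 1.5-fold with an adjusted p below 0.05 in edgeR's quasi-likelihood test over 14502 genes. By this rule 3 of the 9 members tested were called in Ni-E vs UT, all higher, where 1.45% of all genes were called higher, and 3 of 9 were called in Ni-W vs UT, all higher, where 0.503% of all genes were called higher. Both comparisons share the UT libraries. Since the members were chosen with earlier results of these data known, these shares and the medians that follow describe the list and do not test it. The median log2 fold change of the 9 members was 1.56 in Ni-E vs UT and 1.70 in Ni-W vs UT, while the median over all genes tested was -0.01 and 0.00. These are bulk cultures, in which more cells that express a gene and more RNA per cell cannot be told apart.

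**Figure D1:**
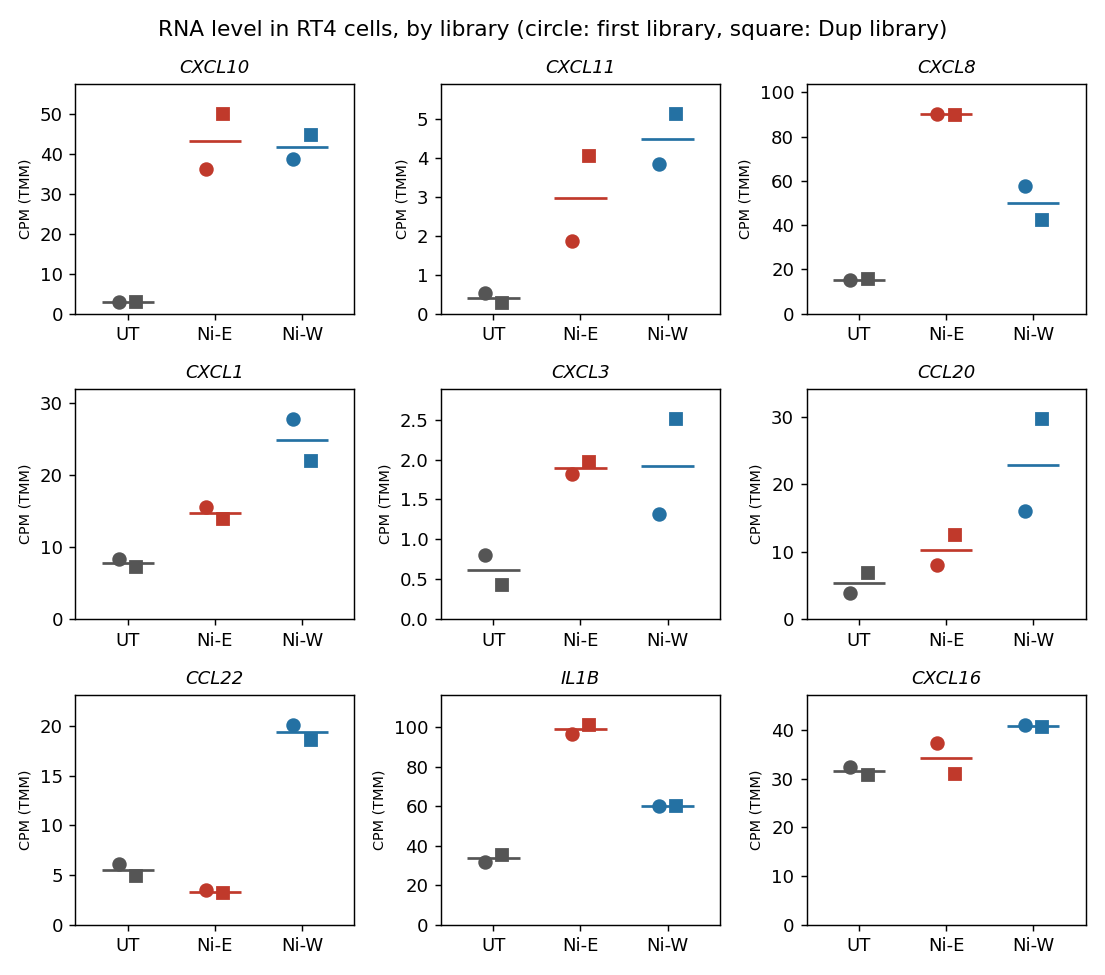
RNA level (CPM, counts scaled to library size with TMM factors, linear axis from 0) of the 9 members detected in RT4 cells in UT, Ni-E and Ni-W. Circles are the first library and squares the Dup library of each condition, and bars are the means of 2 libraries. CXCL8 and IL1B were highest in Ni-E, CXCL10 was about equally high in Ni-E and Ni-W, and CCL22, CXCL1 and CCL20 were highest in Ni-W.

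The plot of levels by library shows that the members followed different courses. Levels are given as CPM, the count of a gene scaled to the size of its library. The libraries of each condition comprise a first library and one named Dup in its title, and values are given in that order. The Dup library was the deeper one in each condition. The labels do not say what Dup marks, so a pairing of same-named libraries across conditions is an assumption, and it cannot be told apart from depth. Same-named libraries deviated together across conditions, and for this reason a fit that takes the pairing as a block is given beside the calls it changed. In that fit 7 of 9 members were called higher (7.64% of all genes) and 1 lower (725 of 14502 genes) in Ni-E vs UT. In Ni-W vs UT 8 of 9 were called higher (5.79% of all genes), and in Ni-W vs Ni-E 5 of 9 were called (4.52% of all genes in either direction).

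CXCL10 (chr4:76021118-76023497, minus strand), an interferon-inducible T cell attractant, had 3.01 and 2.87 CPM in UT, 36.3 and 50.2 CPM in Ni-E, and 38.7 and 44.9 CPM in Ni-W. All Ni-E and Ni-W libraries lay above both UT libraries, and the Ni-E and Ni-W libraries overlapped. Its log2 fold change was 3.88 (SE 0.26, edgeR adjusted p = 0.0085) in Ni-E vs UT and 3.83 (SE 0.25, adjusted p = 0.0131) in Ni-W vs UT. Between Ni-W and Ni-E it differed by -0.05 (SE 0.22, adjusted p = 1) on the log2 scale. CXCL11 (chr4:76033682-76041415, minus strand), which binds the same receptor, was far less abundant. It had 0.537 and 0.275 CPM in UT (10 and 7 counts), 1.87 and 4.04 CPM in Ni-E, and 3.85 and 5.13 CPM in Ni-W. Again UT stood apart from both nickel conditions and these overlapped one another, but the log2 fold changes of 2.90 (SE 0.56, adjusted p = 0.0723) and 3.49 (SE 0.56, adjusted p = 0.0773) did not pass the test. With the replicate block CXCL11 passed in Ni-E vs UT (adjusted p = 0.00104) and in Ni-W vs UT (adjusted p = 0.000341).

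CXCL8 (chr4:73740519-73743716, plus strand), the neutrophil attractant also called interleukin-8, had 15.1 and 15.5 CPM in UT, 90.4 and 89.8 CPM in Ni-E, and 57.8 and 42.2 CPM in Ni-W. The 3 conditions did not overlap, and Ni-W lay between UT and Ni-E. The log2 fold change was 2.55 (SE 0.22, edgeR adjusted p = 0.0113) in Ni-E vs UT and 1.70 (SE 0.21, adjusted p = 0.0466) in Ni-W vs UT. The difference of Ni-W from Ni-E, -0.85 (SE 0.21), did not pass (adjusted p = 0.429) and passed with the replicate block (adjusted p = 0.00495). IL1B (chr2:112829751-112836816, minus strand) showed the same order of conditions. It had 31.7 and 35.3 CPM in UT, 96.6 and 101 CPM in Ni-E, and 59.9 CPM in each Ni-W library. IL1B rose by a log2 fold change of 1.56 (SE 0.17, adjusted p = 0.0199) in Ni-E vs UT. In Ni-W vs UT its value of 0.84 (SE 0.17) did not pass (adjusted p = 0.121) and with the block it did (adjusted p = 0.000754). The value for Ni-W vs Ni-E was -0.72 (SE 0.17), with an adjusted p of 0.38 without and 0.00366 with the block.

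CXCL1 and CXCL3 belong to the same neutrophil-attracting family. CXCL1 (chr4:73869393-73871308, plus strand) had 8.27 and 7.18 CPM in UT, 15.5 and 13.9 CPM in Ni-E, and 27.7 and 21.9 CPM in Ni-W. The conditions did not overlap and, unlike CXCL8, Ni-W was above Ni-E. Its log2 fold change was 0.93 (SE 0.22, edgeR adjusted p = 0.123) in Ni-E vs UT and 1.68 (SE 0.22, adjusted p = 0.0525) in Ni-W vs UT, and neither passed. With the block both passed (adjusted p = 0.00171 and 5.19e-05), as did the difference of Ni-W from Ni-E (log2 fold change 0.74, adjusted p = 0.0121). CXCL3 (chr4:74036589-74038807, minus strand) was low, with 0.806 and 0.432 CPM in UT, 1.82 and 1.97 CPM in Ni-E, and 1.32 and 2.51 CPM in Ni-W. Both nickel conditions lay above UT and overlapped one another. Its log2 fold changes of 1.63 (SE 0.49, adjusted p = 0.221) and 1.66 (SE 0.49, adjusted p = 0.304) passed only with the block (adjusted p = 0.0252 and 0.0319).

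CXCL2 (chr4:74097040-74099196, minus strand), the third member of that family, was listed at 0 in all 6 libraries. No count among 133423175 allows a level of up to 0.0225 CPM over all libraries. In the GENCODE transcripts 10.1% of the 50-base words of CXCL2 also occurred in CXCL1 or CXCL3, and how reads were assigned among them was not tested. Of the 28252 genes listed, 8774 (31.1%) were at 0 in every library. When CXCL1, CXCL2 and CXCL3 were counted as 1 gene, its log2 fold change in Ni-W vs UT was 1.68 (edgeR adjusted p = 0.046), which passed. Most of the summed counts were those of CXCL1 (154 to 569 per library, against 11 to 65 for CXCL3). CXCL1 alone also had 1.68 (edgeR adjusted p = 0.0525), so the sum is not a separate result about the family.

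CCL20 and CCL22 were highest in Ni-W. CCL22 (chr16:57358783-57366189, plus strand), which attracts T cells that carry CCR4, had 6.07 and 4.91 CPM in UT, 3.47 and 3.21 CPM in Ni-E, and 20.2 and 18.6 CPM in Ni-W. It was the only member whose Ni-E libraries both lay below UT, and its Ni-W libraries lay above all others. CCL22 rose by a log2 fold change of 1.82 (SE 0.23, edgeR adjusted p = 0.0449) in Ni-W vs UT. The value in Ni-E vs UT was -0.72 (SE 0.23, adjusted p = 0.249, and 0.0248 with the block). Between Ni-W and Ni-E the levels differed 5.81-fold (log2 fold change 2.54, SE 0.23, adjusted p = 0.124), which passed with the block (adjusted p = 4.48e-05) and in DESeq2 (adjusted p = 6.65e-12). CCL20 (chr2:227805739-227817564, plus strand) had 3.81 and 6.79 CPM in UT, 7.99 and 12.5 CPM in Ni-E, and 16.0 and 29.7 CPM in Ni-W. The conditions did not overlap, and in each the Dup library had the higher value. The log2 fold changes were 0.94 (SE 0.45, adjusted p = 0.526) in Ni-E vs UT and 2.10 (SE 0.46, adjusted p = 0.156) in Ni-W vs UT. With the block CCL20 passed in Ni-E vs UT (adjusted p = 0.00271), in Ni-W vs UT (adjusted p = 2.21e-05) and in Ni-W vs Ni-E (log2 fold change 1.14, adjusted p = 0.00189).

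CXCL16 (chr17:4733533-4739928, minus strand) differed least from UT. It had 32.4 and 30.8 CPM in UT, 37.4 and 30.9 CPM in Ni-E, and 41.1 and 40.7 CPM in Ni-W. Ni-E overlapped UT, and Ni-W lay above both. The log2 fold changes of 0.11 (SE 0.18, edgeR adjusted p = 0.992) and 0.37 (SE 0.18, adjusted p = 0.71) did not pass, nor did they with the block (adjusted p = 0.61 and 0.0797).

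**Figure D2:**
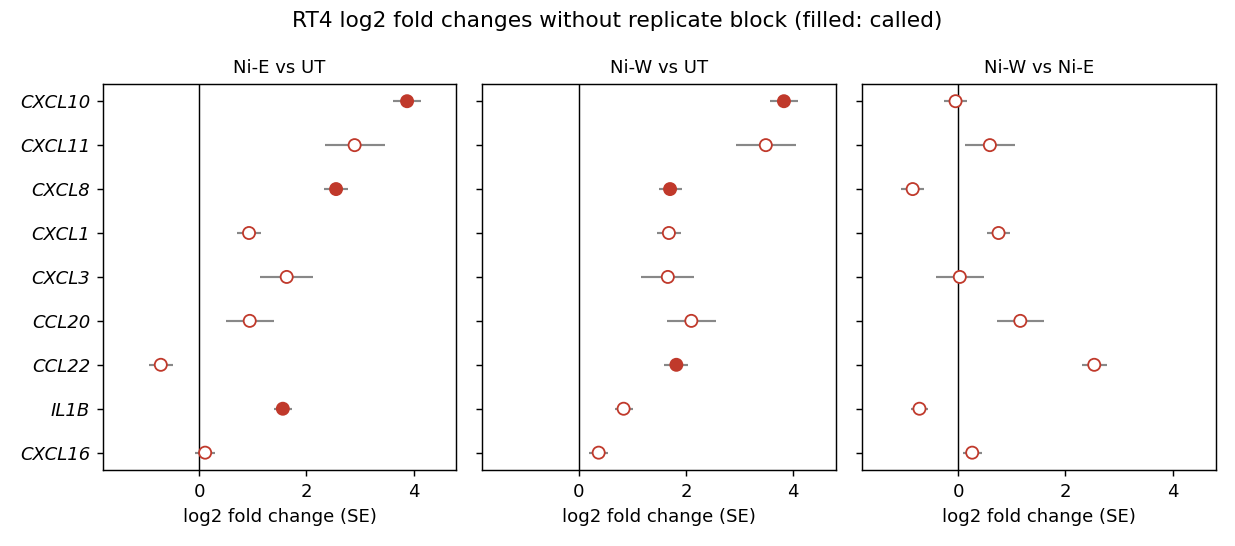
Log2 fold changes of the 9 members tested in RT4 cells in the 3 comparisons, from edgeR without the replicate block. Points are estimates, bars are 1 standard error, and filled points passed the call (at least 1.5-fold and adjusted p below 0.05): CXCL10, CXCL8 and IL1B in Ni-E vs UT, CXCL10, CXCL8 and CCL22 in Ni-W vs UT, and none in Ni-W vs Ni-E.

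Read by overlap alone, 7 of the 9 members were higher in both Ni-E libraries than in both UT libraries, a pattern held by 20.3% of all genes, and all 9 were higher in both Ni-W libraries than in both UT libraries, compared with 15.1% of all genes. Between Ni-W and Ni-E, CCL20, CCL22, CXCL1 and CXCL16 were apart and higher in Ni-W (12.7% of all genes) and CXCL8 and IL1B were apart and lower (12.7% of all genes). As the plot of fold changes shows, none of the 9 members was called in Ni-W vs Ni-E, where edgeR called 0 of 14502 genes (0%). At an unadjusted p under 0.05 there were 808 genes, among them 5 members, and DESeq2 called 139 genes, with CCL22 the only member.

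The calls rested on few libraries. Without either Ni-E library edgeR called 0 genes in Ni-E vs UT (1041 and 1068 genes at an unadjusted p under 0.05) and 0 in Ni-W vs UT (1004 and 961 genes), and DESeq2 was not run on these subsets. The adjusted p of CXCL10 in Ni-E vs UT was then 0.0927 without the first Ni-E library and 0.117 without the Dup library, with log2 fold changes of 4.09 and 3.63, and it was 0.0573 without the Dup UT library. CXCL8 and IL1B in Ni-E vs UT also lost the call without either UT library or either Ni-E library, with log2 fold changes of 2.54 to 2.58 and 1.49 to 1.64. In Ni-W vs UT, CCL22 lost the call whichever library was left out (log2 fold change 1.67 to 1.98), CXCL8 kept it only without the Dup Ni-W library, and CXCL10 kept it only without either Ni-W library (log2 fold change 3.72 to 3.94 over all 6 omissions).

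By level, the members spanned a wide range in RT4 cells. In TPM, which also corrects for the length of the transcript, the order in UT was IL1B (43.6 ± 2.5 TPM, SD, n = 2), CXCL16 (27.2 ± 5.4), CXCL8 (22.3 ± 4.7), CCL20 (13.7 ± 3.7), CXCL1 (13.5 ± 3.1), CXCL10 (5.12 ± 0.85), CCL22 (3.5 ± 0.98), CXCL3 (1.24 ± 0.67), CXCL11 (0.560 ± 0.33) and CXCL2 at 0. The libraries of CXCL16 and CXCL8 overlapped, as did those of CCL20 and CXCL1 and those of CXCL3 and CXCL11. In Ni-E cells IL1B (130 ± 6.2 TPM) and CXCL8 (126 ± 14) led with overlapping libraries, followed by CXCL10 (75.1 ± 11), CXCL16 (30.2 ± 7.6), CCL20 (27.1 ± 6.3), CXCL1 (25.9 ± 4.2), CXCL11 (3.905 ± 1.7), CXCL3 (3.695 ± 0.092) and CCL22 (2.125 ± 0.29). The libraries of CXCL16, CCL20 and CXCL1 overlapped, and so did those of CXCL11 and CXCL3. In Ni-W cells IL1B (81.7 ± 15), CXCL10 (75.1 ± 6.3), CXCL8 (71.0 ± 32) and CCL20 (60.8 ± 15) led, and their libraries overlapped from each gene to the next. They were followed by CXCL1 (45.65 ± 16), CXCL16 (36.8 ± 7.0), CCL22 (12.835 ± 3.1), CXCL11 (6.14 ± 0.085) and CXCL3 (3.715 ± 0.97). The libraries of CXCL1 overlapped those of CCL20 and of CXCL16. CXCL10 thus stood sixth in UT and second in Ni-W. The 3 genes whose log2 CPM was most like that of CXCL10 over the 6 libraries were RIMS4 (Pearson r = 0.998), ZC3H6 (0.996) and ADGRB2 (0.996). RIMS4 was at 0 in both UT libraries and at 0.386 to 0.510 CPM in the others, whereas ADGRB2 went from 27.7 and 28.0 CPM to 53.7 to 57.3 CPM.

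Most signalling receptors of the listed chemokines were at or near 0 in RT4 cells. CXCR1 and CXCR3 were at 0 in all 6 libraries, CCR4 and CCR6 did not exceed 0.04 TPM, and CXCR2 did not exceed 0.28 TPM. CXCR6, the receptor of CXCL16, had 0.70 to 2.50 TPM and was not called. Among the atypical receptors, named after their values were seen, ACKR3, which binds CXCL11, had 159 to 311 TPM, and ACKR2, which binds inflammatory CC chemokines, had 2.65 to 7.69 TPM. Of 22 chemokine receptors, 9 were tested. In Ni-E vs UT 1 of the 9 was called higher (1.45% of all genes) and 1 lower (103 of 14502 genes). In Ni-E vs UT, CXCR4, the receptor of CXCL12, rose by a log2 fold change of 3.25 (SE 0.42, edgeR adjusted p = 0.0281) from 0.20 and 0.29 TPM to 2.58 and 2.48 TPM. CXCR4 had only 3 and 7 counts in UT, at or near the floor of 3 counts, so the size of its rise is uncertain. In the same comparison CCR1 fell by 1.94 (edgeR adjusted p = 0.0204). After washout 0 of the 9 receptors were called against UT by edgeR, which called 0.503% of all genes higher and 14 of 14502 lower. Of the 9, 4 had an unadjusted p under 0.05, as did 1323 of 14502 genes. DESeq2 called 0 of the 9, and of 28252 genes it called 342 higher and 100 lower. With the replicate block 1 was called higher (7.64% of all genes) and 3 lower (725 of 14502 genes) in Ni-E vs UT, and 2 higher (5.79% of all genes) in Ni-W vs UT.

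Of 30 other chemokines, 12 were at 0 in every library and only 6 were expressed highly enough to be tested. In Ni-E vs UT 1 of the 6 was called, lower (103 of 14502 genes). CXCL17, a mucosal chemokine, fell by 4.07 on the log2 scale (SE 0.44, edgeR adjusted p = 0.0199) in Ni-E vs UT, from 21.4 and 32.8 CPM to 1.05 and 2.11 CPM. It had 5.98 and 7.87 CPM in Ni-W, and the log2 fold change of -1.97 did not pass (adjusted p = 0.125) but did with the block (adjusted p = 4.58e-05). CCL5, a T cell attractant named after its values were seen, had 0.161 and 0.589 CPM in UT (3 and 15 counts), 2.32 and 3.39 CPM in Ni-E, and 4.88 and 8.25 CPM in Ni-W. Its log2 fold changes of 2.85 (SE 0.61, edgeR adjusted p = 0.095) and 4.05 (SE 0.61, adjusted p = 0.0693) did not pass but did with the block (adjusted p = 0.00029 and 2.68e-05). After washout 0 of the 6 were called against UT by edgeR, which called 0.503% of all genes higher and 14 of 14502 lower. Of the 6, 3 had an unadjusted p under 0.05, as did 1323 of 14502 genes. DESeq2 called CCL5 higher and CXCL17 lower, and of 28252 genes it called 342 higher and 100 lower. With the replicate block 1 was called higher (7.64% of all genes) and 2 lower (725 of 14502 genes) in Ni-E vs UT. In Ni-W vs UT 2 were called higher (5.79% of all genes) and 1 lower (403 of 14502 genes). CXCL6, chosen here for its place beside CXCL8 and CXCL1 after its values were seen, had 1.18 to 1.56 CPM in UT, 1.09 and 1.16 CPM in Ni-E, and 5.29 and 2.93 CPM in Ni-W (Ni-W vs UT log2 fold change 1.58, edgeR adjusted p = 0.209, and 0.00595 with the block, where it was called higher).

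Other inflammatory cytokines included 3 that rose during exposure. Of 21 listed, 9 were tested, and in Ni-E vs UT 3 were called, all higher (1.45% of all genes). CSF2, which encodes GM-CSF, rose by a log2 fold change of 2.92 (SE 0.47, edgeR adjusted p = 0.046) from 0.161 and 0.196 CPM to 1.10 and 1.68 CPM. CSF2 had only 3 and 5 counts in UT, at or near the floor of 3 counts, so the size of its rise is uncertain. LIF, an IL-6 family cytokine, rose by 1.62 (SE 0.18, adjusted p = 0.0199), and CSF1, the macrophage growth factor, rose by 1.46 (SE 0.198, adjusted p = 0.0313). CSF1 alone was called in Ni-W vs UT, with a log2 fold change of 1.58 (SE 0.20, adjusted p = 0.0466). In that comparison 0.503% of all genes were called higher. In the fit with the block, 6 of the 9 were called higher in each comparison with UT, where 7.64% (Ni-E) and 5.79% (Ni-W) of all genes were. The median log2 fold change of the 9 was 1.25 in Ni-E vs UT and 0.83 in Ni-W vs UT.

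In the IL-1 family and its signalling, edgeR without the block called IL1A alone against UT. In Ni-E vs UT it called 1.45% of all genes higher and 103 of 14502 lower. In Ni-W vs UT these were 0.503% and 14 of 14502. An unadjusted p under 0.05 was held by 1773 and 1323 of 14502 genes. DESeq2 called 461 and 342 of 28252 genes higher, and 269 and 100 lower. IL1A, which acts on the same receptor as IL1B, rose 2.29-fold (edgeR adjusted p = 0.0331) in Ni-E vs UT and was the only one of 12 tested ligands and receptors that was called by that fit. It had 51.0 and 49.2 CPM in UT, 108 and 122 CPM in Ni-E, and 106 and 96.0 CPM in Ni-W. In Ni-E vs UT DESeq2 called IL1A higher and IL1R1, IL1R2 and IL33 lower. IL1R1, the receptor of IL1B, had a log2 fold change of -1.10 (SE 0.26, edgeR adjusted p = 0.122, and 0.000291 with the block). IL1R1, IL1R2 and IL33 were named after their values were seen. After washout 0 of 12 were called against UT by edgeR, with 2 at an unadjusted p under 0.05, and DESeq2 called IL1A. The blocked fit called 2 of the 12 higher (7.64% of all genes) and 3 lower (725 of 14502 genes) in Ni-E vs UT. In Ni-W vs UT it called 1 higher (5.79% of all genes) and 2 lower (403 of 14502 genes). Of 14 genes of IL-1 processing and signalling tested, 0 were called in Ni-E vs UT or in Ni-W vs UT, with 2 at an unadjusted p under 0.05 in each, and DESeq2 called IRAK3, an inhibitor of IL-1 receptor signalling, in Ni-E vs UT and 0 in Ni-W vs UT. With the block 2 of these 14 were called higher in each, where 7.64% (Ni-E) and 5.79% (Ni-W) of all genes were.

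The NF-kappaB pathway list holds subunits, kinases, inhibitors and feedback targets, and all 21 genes were tested. None was called in Ni-E vs UT, with 4 at an unadjusted p under 0.05 and 2 called by DESeq2 (TNFAIP3 and TNIP1, both feedback inhibitors). None was called in Ni-W vs UT, with 3 and 2 (BIRC3 and TNFAIP3). In these comparisons edgeR called 1.45% and 0.503% of all genes higher, and 103 and 14 of 14502 lower. An unadjusted p under 0.05 was held by 1773 and 1323 of 14502 genes. DESeq2 called 461 and 342 of 28252 genes higher, and 269 and 100 lower. TNFAIP3 had 20.7 and 15.2 CPM in UT, 70.5 and 52.3 CPM in Ni-E, and 50.3 and 33.4 CPM in Ni-W, with log2 fold changes of 1.78 (SE 0.31, edgeR adjusted p = 0.0551) and 1.22 (SE 0.30, adjusted p = 0.205) that did not pass but did with the block (adjusted p = 5.79e-06 and 0.000114). BIRC3 had 11.0 and 11.3 CPM in UT, 18.7 and 19.0 CPM in Ni-E, and 43.6 and 29.8 CPM in Ni-W, with 0.76 (adjusted p = 0.238) and 1.72 (adjusted p = 0.0573), which passed with the block (adjusted p = 0.0125 and 0.000126). TNFAIP3, TNIP1 and BIRC3 were named after their values were seen. With the replicate block 5 of the 21 were called higher in Ni-E vs UT (7.64% of all genes), including NFKBIA, and 4 in Ni-W vs UT (5.79% of all genes). The median log2 fold change of the list was 0.12 in Ni-E vs UT and 0.35 in Ni-W vs UT.

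The list for the interferon-gamma axis of CXCL10 and CXCL11 holds receptor subunits, kinases and transcription factors. None of its 10 genes was called in Ni-E vs UT, with 1 at an unadjusted p under 0.05 and IRF9 called by DESeq2. None was called in Ni-W vs UT, with 5 and DESeq2 calls for IRF1 and IRF9. In these comparisons edgeR called 1.45% and 0.503% of all genes higher, and 103 and 14 of 14502 lower. An unadjusted p under 0.05 was held by 1773 and 1323 of 14502 genes. DESeq2 called 461 and 342 of 28252 genes higher, and 269 and 100 lower. IRF9, a subunit of the factor that binds the ISRE and named after its values were seen, had 19.2 and 32.3 CPM in UT, 70.6 and 88.6 CPM in Ni-E, and 111 and 171 CPM in Ni-W. Its log2 fold changes were 1.62 (SE 0.34, edgeR adjusted p = 0.0939) and 2.45 (SE 0.35, adjusted p = 0.0604), which did not pass but did with the block (adjusted p = 1.24e-05 and 1.77e-06). With the block 2 of the 10 were called higher in Ni-E vs UT (7.64% of all genes) and 4 in Ni-W vs UT (5.79% of all genes). ADAM10 and ADAM17, the proteases that shed CXCL16, were not called in either comparison by edgeR or DESeq2, and 0 had an unadjusted p under 0.05.

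The label of RT4 was checked against markers. The 14 urothelial and epithelial markers summed to 13416 to 17007 TPM in all libraries, and the keratins KRT7 and KRT19 made up most of the sum. KRT20, a keratin of superficial urothelium, fell by 6.03 on the log2 scale (edgeR adjusted p = 0.0085) in Ni-E vs UT, to 4 and 3 counts. In Ni-W vs UT it fell by 2.97 (adjusted p = 0.0294), and the uroplakin UPK1A fell by 2.27 (adjusted p = 0.0376) in Ni-E vs UT. The keratin KRT5, named after its values were seen, rose by 1.18 (edgeR adjusted p = 0.0982) in Ni-E vs UT, which passed with the block (adjusted p = 0.0042). The block called 1 of the 14 higher (7.64% of all genes) and 5 lower (725 of 14502 genes) in Ni-E vs UT. In Ni-W vs UT it called 1 higher (5.79%) and 2 lower (403 of 14502 genes). The 10 leukocyte markers summed to 11.3 to 13.1 TPM in UT, 15.8 to 19.5 TPM in Ni-E and 21.6 to 23.4 TPM in Ni-W. The sum lay above UT in both nickel conditions, as did most members, although the members differed in their course from Ni-E to Ni-W. Of the 10 leukocyte markers, 8 were under 1 TPM in every condition. CD68 and ITGAM made up most of the sum, and the defining leukocyte gene PTPRC did not exceed 0.04 TPM. The 7 fibroblast markers summed to 1.09 to 1.73 TPM in UT, 3.01 to 4.75 TPM in Ni-E and 2.34 to 5.13 TPM in Ni-W. Their sum also lay above UT in both nickel conditions. Most of that sum in Ni-E and Ni-W was the collagen gene COL3A1, whose log2 fold changes of 2.58 (edgeR adjusted p = 0.147) and 2.40 (adjusted p = 0.25) against UT did not pass but did with the replicate block (adjusted p = 3.56e-05 and 0.000115). The 4 endothelial markers summed to 0.94 to 1.90 TPM in UT, 0.61 to 0.96 TPM in Ni-E and 0.88 to 1.67 TPM in Ni-W. The part of these markers in the result was not tested.

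In BEAS-2B cells, promoter H3K4me3 was measured as RPKM over 2 kb on each side of the start, from 28385725 to 37493949 reads per library. The chemokine genes fell into a marked and an unmarked set. CXCL16, CXCL1, CXCL3, CXCL2, CXCL8 and IL1B had at least 1 RPKM in every library, and CXCL10, CXCL11, CCL20 and CCL22 did not exceed 0.335 RPKM in any. With 1 library for each condition there is no test of a condition, and the 95% Wilson intervals of the reads cover counting error only. The identity of BEAS-2B could not be checked against marker RNA, since its RNA-Seq was not analysed here.

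**Figure D3:**
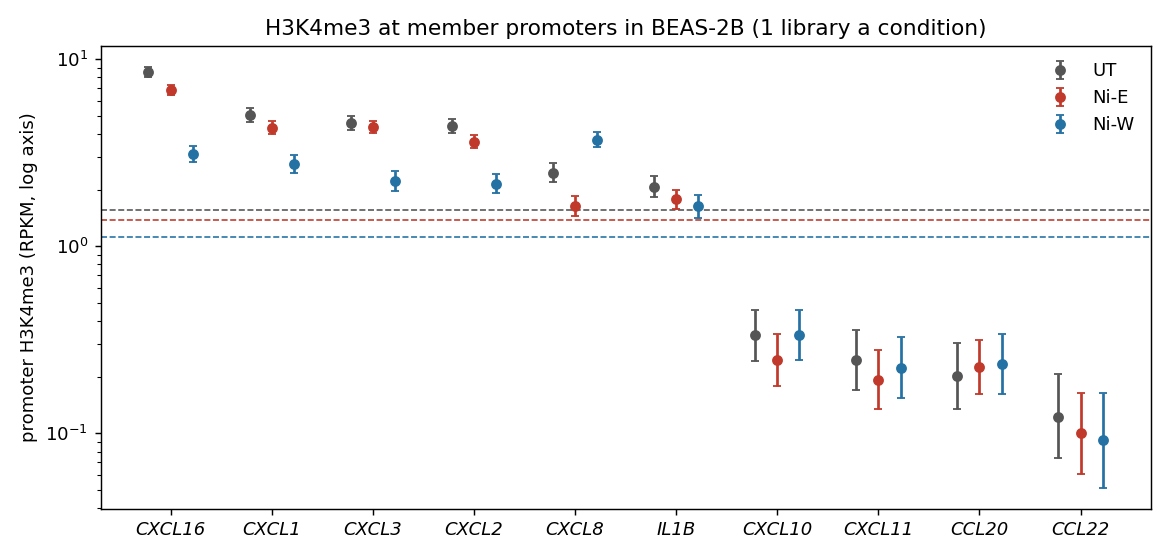
H3K4me3 level (RPKM, log axis) at the promoters of the 10 members in BEAS-2B UT, Ni-E and Ni-W cells, 1 library each. Bars are 95% Wilson intervals of the reads, and dashed lines are the median promoter of each library (1.57, 1.39 and 1.12 RPKM). CXCL8 is the only one of the 6 marked promoters at which Ni-W lies above UT in RPKM as deposited (with median scaling IL1B does too), and CXCL10, CXCL11, CCL20 and CCL22 lie far below the medians.

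CXCL16 had the highest level of the 10 in UT and Ni-E, and CXCL8 in Ni-W. CXCL16 had 8.53 RPKM in UT (interval 8.01 to 9.09), 6.81 RPKM in Ni-E (6.41 to 7.25) and 3.12 RPKM in Ni-W (2.82 to 3.46). The intervals did not overlap, and Ni-W was the lowest. CXCL1 had 5.03 RPKM in UT (4.63 to 5.46), 4.31 RPKM in Ni-E (3.99 to 4.65) and 2.75 RPKM in Ni-W (2.47 to 3.06). CXCL3 had 4.56, 4.35 and 2.24 RPKM and CXCL2 had 4.395, 3.63 and 2.16 RPKM in UT, Ni-E and Ni-W. At these 3 related promoters Ni-W was the lowest library in RPKM as deposited, and with quantile normalization Ni-W was 1.05 times Ni-E at CXCL1. Most promoters were also lower in Ni-W as deposited, with a median log2 ratio to UT of -0.81. As deposited, Ni-W was 0.546, 0.492 and 0.491 times UT at CXCL1, CXCL2 and CXCL3. With quantile normalization it was 0.956, 0.849 and 0.847 times UT.

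CXCL8 showed the opposite order. It had 2.475 RPKM in UT (2.20 to 2.78), 1.65 RPKM in Ni-E (1.45 to 1.87) and 3.71 RPKM in Ni-W (3.38 to 4.07), so that Ni-W was the highest and Ni-E the lowest, without overlap of the intervals. IL1B had 2.08 RPKM in UT (1.83 to 2.36), 1.78 RPKM in Ni-E (1.58 to 2.01) and 1.64 RPKM in Ni-W (1.42 to 1.88), and each interval overlapped the next. Among the unmarked promoters, CXCL10 had 0.335, 0.247 and 0.334 RPKM from 38, 37 and 40 reads, and its intervals overlapped in all 3 libraries. CXCL11 had 0.247, 0.193 and 0.225 RPKM, CCL20 had 0.203, 0.227 and 0.234 RPKM, and CCL22 had 0.123, 0.1 and 0.092 RPKM from 14, 15 and 11 reads. The intervals of CXCL11, CCL20 and CCL22 overlapped as well.

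Because the median promoter differed between libraries, each RPKM was divided by the median of its library before ratios were taken. Over promoters with at least 1 RPKM in 1 of the libraries compared, the median log2 ratio was then 0.11 in Ni-E vs UT, -0.32 in Ni-W vs UT and -0.41 in Ni-W vs Ni-E, and without scaling it was -0.07, -0.81 and -0.72. At the 4 unmarked promoters the interval of the scaled ratio included 1 in every comparison except CXCL10 in Ni-W vs Ni-E, at 1.68 times (1.07 to 2.62). In Ni-E vs UT 0 of the 6 marked members were past 1.5-fold, where 1.41% of 13935 promoters were. CXCL8 came closest, at 0.752 times UT (interval 0.634 to 0.893). In Ni-W vs UT 2 of the 6 were past 1.5-fold, where 22.8% of 14059 promoters were. CXCL8 was 2.10 times UT (1.81 to 2.44, log2 ratio 1.07) and CXCL16 was 0.513 times UT (0.455 to 0.578, log2 ratio -0.96). In Ni-W vs Ni-E 3 of the 6 were past 1.5-fold, where 34.6% of 13965 promoters were. CXCL8 was 2.79 times Ni-E (2.39 to 3.26), CXCL16 was 0.568 times Ni-E (0.505 to 0.640) and CXCL3 was 0.638 times Ni-E (0.554 to 0.736). Where so large a share of all promoters is past the fold, counts of 2 or 3 among 6 are not a result about the members.

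The study's chromatin dynamic score is the difference between 2 conditions in the square root of the median-scaled level. Its ranks are over all 26237 promoters, without the minimum level that left 14059 for the ratios of Ni-W vs UT. They therefore include many promoters with little H3K4me3. For CXCL8 the score of Ni-W against UT was 0.56, above 99.3% of promoters, and that of Ni-W against Ni-E was 0.73, above 99.8% of promoters. For CXCL16 the score of Ni-W against UT was -0.66, above only 0.53% of promoters. For CXCL1, CXCL2 and CXCL3 that score was -0.22, -0.28 and -0.29, above 24.6%, 18.8% and 18.1% of promoters. Direction held under every scaling tried for CXCL8 (1.498 and 2.63 times UT in Ni-W without scaling and with quantile normalization) and for CXCL16 (0.366 and 0.633 times UT). For IL1B it did not, since Ni-W was 1.10 times UT with median scaling, 0.787 times without scaling and 1.27 times with quantile normalization.

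**Figure D4:**
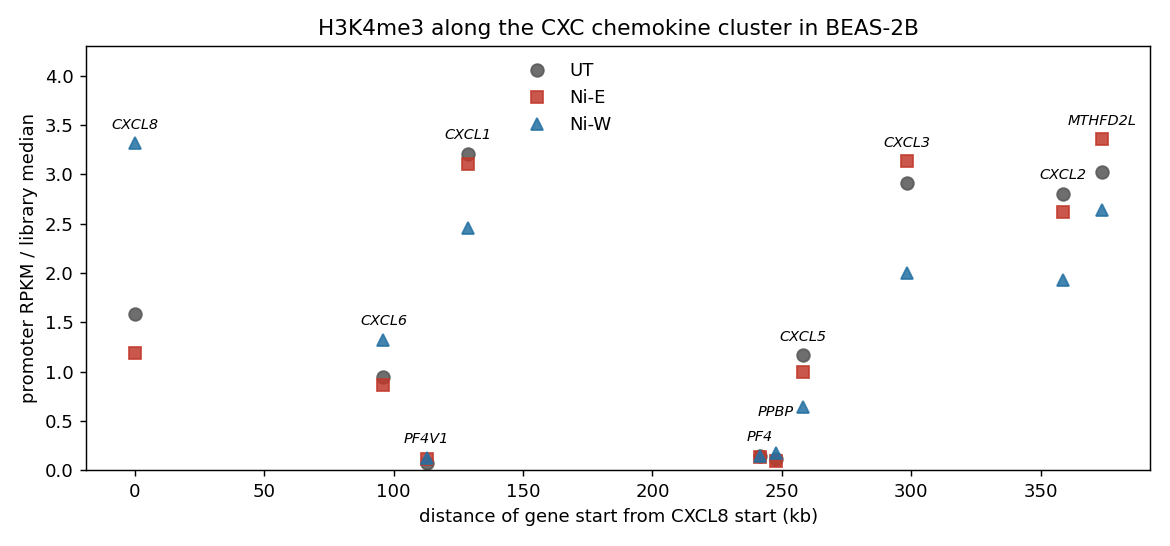
H3K4me3 of BEAS-2B promoters along the CXC chemokine cluster of chromosome 4, as RPKM divided by the library median (linear axis from 0), against the distance of the gene start from that of CXCL8 in kb. Points are UT, Ni-E and Ni-W, 1 library each. In Ni-W, CXCL8 is higher than in UT, and CXCL1, CXCL3 and CXCL2 are lower, while CXCL6 is higher on this scale and equal in RPKM as deposited (1.48). On this scale the median log2 ratio of Ni-W to UT was -0.32 over promoters with at least 1 RPKM in 1 of the 2.

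CXCL8, CXCL1, CXCL3 and CXCL2 lie in 1 cluster on chromosome 4, in which the start of CXCL2 is 358.7 kb from that of CXCL8. The plot along the cluster shows that the marked promoters were separated by promoters with little H3K4me3, namely those of PF4V1, PF4 and PPBP, which did not exceed 0.229 RPKM. The 2 genes nearest the CXCL8 end were CXCL8 and CXCL6, and CXCL6, at 96.1 kb from CXCL8, had 1.48 RPKM in UT, 1.2 RPKM in Ni-E and 1.48 RPKM in Ni-W. CXCL5, at 258.2 kb, had 1.83, 1.39 and 0.718 RPKM. MTHFD2L, a folate enzyme gene past CXCL2 at 373.7 kb, had 4.74, 4.65 and 2.95 RPKM. CXCL6, CXCL5, PF4V1, PF4, PPBP and MTHFD2L are shown for their position. CXCL10 and CXCL11 lie apart, 1.92 Mb beyond CXCL2.

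The marks and the RNA come from different cell lines and cannot be compared gene by gene as 1 system. Side by side, CXCL10 had the largest rise of the members called in RT4 cells and little H3K4me3 in any BEAS-2B library. CXCL2 was at 0 in RT4 RNA, and its promoter in BEAS-2B UT cells stood above 62.4% of all promoters. CXCL8 was lower in RT4 Ni-W than in RT4 Ni-E cells, and its promoter in BEAS-2B was higher in Ni-W than in Ni-E.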

How the data were processed

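RNA-Seq of RT4 cells (UT, Ni-E, Ni-W; 2 libraries each) and H3K4me3 ChIP-Seq of BEAS-2B cells (1 library each) were analysed. For RNA, the deposited gene files hold estimated counts, TPM and FPKM that the authors made with RSEM. The methods name STAR, hg19 and DESeq2 and the labels name GRCh38, so the build of the RSEM files is not given in the sources used here. The deposited FPKM values entered no result. For ChIP, the deposited values are promoter RPKM, which the authors made from BWA alignments to hg38 after duplicate reads were reduced to 1. Whether replicates were pooled is not stated, and input libraries were not used here. The labels also name 2 weeks of washout for BEAS-2B.

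Estimated counts were rounded (97.9% to 98.0% were whole within 0.005) and tested with edgeR 4.0.16 (quasi-likelihood, TMM, filterByExpr, Benjamini-Hochberg) in 1 model of the 3 groups. RPKM values were whole multiples of 1 read (within 0.1 read), which gave reads, depth and Wilson intervals. The floor was 3 counts. Intervals and floors cover counting error only, since reads carry no molecular identifiers. Replicates of a condition differed by more than sampling noise (chi-square per degree of freedom 42.3 to 128). Pairing was assumed from the suffix Dup in the titles, and the labels do not say what it marks. The difference of the Dup from the first library correlated between conditions (r = 0.657, 0.764 and 0.689), so the blocked fit was treated as paired. Alternatives were RLE factors, DESeq2 1.42.0, other filters, limma 3.58.1 on log2(TPM + 1) or log2(TPM + 0.1), the block, 2 groups alone, libraries left out, and for ChIP other scalings, no minimum and (RPKM + 1). On simulated data for Ni-E vs UT with 14322 genes, 66 of 100 genes changed 3-fold and 17 of 100 changed 2-fold were recovered, with 4 wrong calls.

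Members and gene lists were chosen with earlier results of these data known. All members are named. From other lists, up to 3 called genes with the largest change in Ni-E vs UT and in Ni-W vs UT are named, with the 3 genes most like the most changed member. Others are stated as chosen after their values were seen. Gene positions are from GENCODE on GRCh38 and promoter sequences from RefSeq.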

Additional observations from a re-analysis of the deposited data

How the results depend on the processing

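At this depth the 0 counts of CXCL2 allow up to 0.0225 CPM, and the single ChIP library of each condition gave no test. With 2 libraries a condition, counts of calls moved with most settings. In Ni-E vs UT 314 genes and 3 members were called. DESeq2 gave 730 and 5, at least 10 counts in every library 209 genes, limma on log2(TPM + 1) 170 and on log2(TPM + 0.1) 173 genes, and leaving out 1 library 0 to 320 genes and 0 to 3 members. In Ni-W vs UT 87 genes and 3 members were called. DESeq2 gave 442 and 7, no filter 193 and 5, at least 10 counts 54 and 1, only the 2 groups compared 0 and 0, either limma setting 1 member, and leaving out 1 library 0 to 38 genes and 0 to 2 members. In Ni-W vs Ni-E 0 were called. DESeq2 gave 139 and 1, no filter 14 and 1, limma on log2(TPM + 0.1) 11 genes, and leaving out 1 library 0. With the replicate block the counts were 1833 genes and 8 members, 1243 and 8, and 655 and 5, and no member lost its call. The cause of these moves was not tested.

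Where a library was left out, the lone sample was assumed to vary like the other groups. Log2 fold changes near 0 changed sign. CXCL3 in Ni-W vs Ni-E was -0.0091 with log2(TPM + 1) and -0.0158 with log2(TPM + 0.1) and ranged from -0.52 to 0.41 without 1 library. CXCL10 there was 0.0036 and 0.0037 and ranged from -0.26 to 0.20. CXCL16 in Ni-E vs UT ranged from -0.0345 to 0.24. Over members, comparisons and settings, 328 fold changes kept direction and call, 28 gained and 37 lost a call, and 9 changed sign.

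For H3K4me3, no median scaling moved the members past 1.5-fold from 0 to 1 in Ni-E vs UT (CXCL8), from 2 to 4 in Ni-W vs UT (CXCL1, CXCL2, CXCL3 and CXCL16, all lower) and from 3 to 5 in Ni-W vs Ni-E, and quantile normalization from 3 to 1 (CXCL8) in Ni-W vs Ni-E. With no minimum level CCL20 was added in Ni-W vs UT (3) and CXCL10 in Ni-W vs Ni-E (4), and with RPKM + 1 CXCL3 was lost there (2). Over the marked members, comparisons and settings, 39 promoter ratios stayed within counting error of the main ratio and 33 moved beyond it.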
